A study of Mus musculus with 8 samples.

Results

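The 10 genes studied here belong to the interleukin-1 family and the inflammasome, and were read in whole lungs of mice with and without Atf4: Il1a, Il1b, Il1rn, Il1r1, Il1rap, Il18, Il33, Il36g, Nlrp3 and Casp1. All 10 genes were found among 30176 genes with a transcript cluster (a set of array probes along 1 gene) that carries a single gene symbol, and each gene had 1 such cluster. Il36g is listed by the platform under its older symbol Il1f9. RNA came from lungs of 8 mice aged 13 weeks, harvested 4 weeks after tamoxifen, with 1 array per mouse. ATF4 is the main transcriptional effector through which stressed cells adapt their amino acid supply and protein synthesis. The 4 knockout mice (Atf4D/D) had carried floxed Atf4 alleles excised by a tamoxifen-activated Cre recombinase expressed from the Rosa26 locus, which is active in all tissues, blood cells included. The 4 wild-type mice (Atf4wt/wt) carried the same Cre and received the same tamoxifen, and both groups were of C57BL/6 background with 3 males and 1 female (wild-type replicate 3 and knockout replicate 2). The question behind the comparison was how the loss of host Atf4 alters the lung ahead of metastasis.

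Interleukin-1 cytokines are alarm signals of innate immunity. Il1b and Il18 are made as inactive precursors that caspase-1 (Casp1) cleaves inside the inflammasome, a complex that assembles around a sensor such as NLRP3, whereas Il1a, Il33 and Il36g act without that step. Il1a and Il1b signal through Il1r1 paired with Il1rap, and Il1rn encodes an antagonist that occupies Il1r1 without signalling. In the lung, Il33 is stored in the nuclei of alveolar type 2 cells in mice, and Il1b is made mainly by neutrophils, monocytes and macrophages once they are activated.

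The array signal is a log2 value from robust multi-array averaging (RMA), and each difference is the knockout mean less the wild-type mean on that scale, with the standard error (SE) from limma. Calls required a Benjamini-Hochberg adjusted p, over 65956 transcript clusters, not exceeding 0.05, together with more than 1.5-fold change. Atf4 itself gave 6.99, 8.03, 7.995 and 7.58 in the wild type (replicates 1 to 4) and 6.34, 6.26, 6.48 and 6.38 in the knockout (difference -1.29, SE 0.21, adjusted p = 0.0485, limma). The array labelled wild-type replicate 1 therefore lay nearest to the knockout, and member values are also given without it where they rest on it. The lung markers Sftpa1 and Sftpb, surfactant genes of alveolar type 2 cells, read 17.59 to 17.94 and 18.57 to 18.77 over the 8 arrays. Any pair of arrays correlated across clusters at 0.988 to 0.996, and the array medians lay between 5.21 and 5.29. In whole tissue, more cells of a type and more RNA per cell cannot be told apart.

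The cytokines Il1b and Il36g had the largest differences of the 10 members. Il1b read 3.43 higher in the knockout and Il36g 2.41 higher, and Il1rn, Nlrp3 and Casp1 read 0.40 to 0.67 higher. The remaining 5 members differed by 0.26 or less in either direction. None of the 10 members was called by limma with all 8 arrays, where 0.276% of all clusters were called, 0.229% higher and 0.0470% lower. At an unadjusted p under 0.05, 5 members were higher (4.40% of all clusters) and 1 was lower (7.63%, and 12.0% in either direction). In 4 members every knockout array read above every wild-type array (2.83% of all clusters), and in 0 members below (4.41%, and 7.24% in either direction). The median difference was 0.29 over the 10 members and -0.03 over all clusters.

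**Figure D1:**
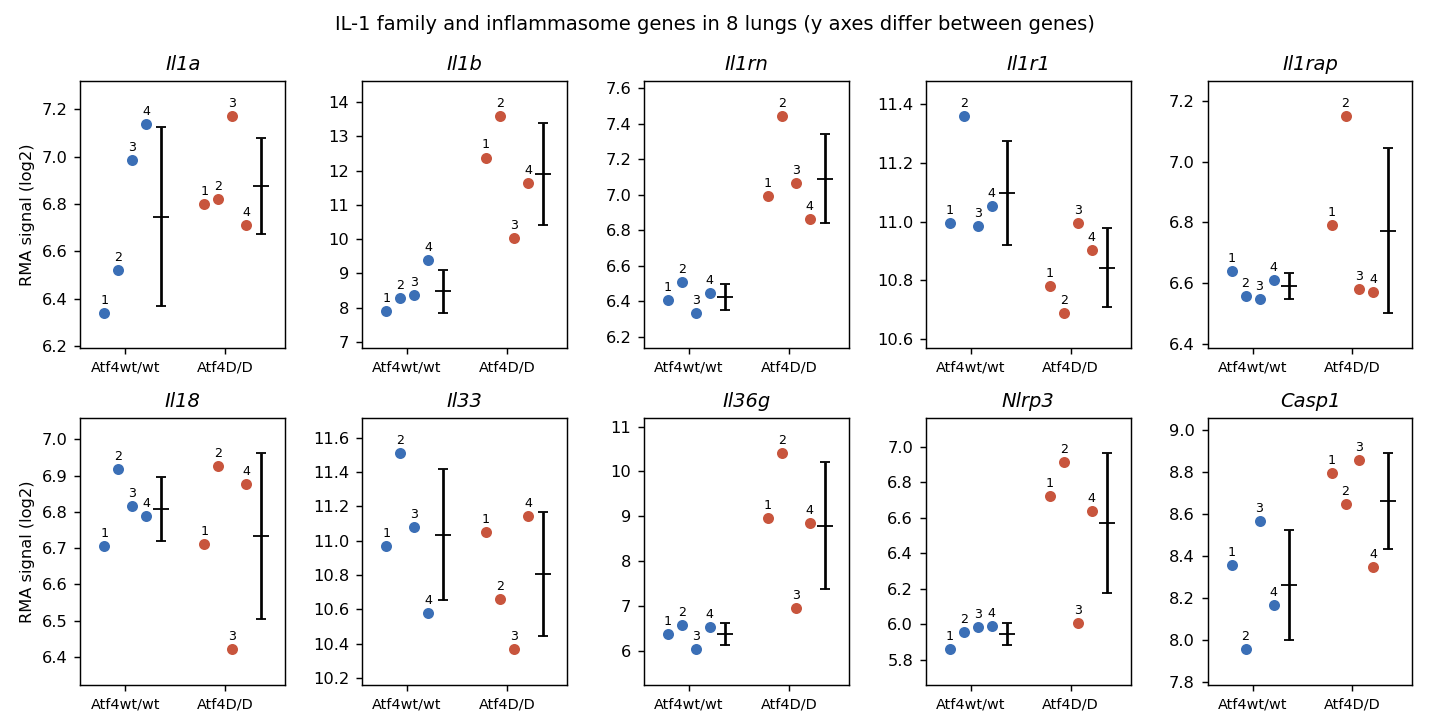
Log2 RMA signal of each of the 10 genes, 1 panel per gene with its own y axis, in Atf4wt/wt (blue) and Atf4D/D (red) lungs; each point is 1 mouse with its replicate number, and the bar beside each group is the mean with its SD (n = 4). Il1b, Il1rn, Il36g and Nlrp3 separate the groups, and knockout replicate 3 lies closest to the wild type in Il1b, Il36g and Nlrp3.

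The promoters of these 4 separated genes are shown because they are the members whose groups did not overlap. The sequences are RefSeq windows of GRCm38.p6 from 250 bases before to 50 bases after an annotated start, written 5′ to 3′ on the strand of the gene. Capitals mark matches, on either strand, to TGATGNAA (the composite element bound by ATF4 with C/EBP partners) or TGACGTCA (the cyclic AMP response element). They also mark, on either strand, the NF-κB letters (GGG, any 2 bases, then TTTCC) and TATAAA (the letters of a TATA box, at any position). The marked matches do not overlap each other. Il1rn has 3 annotated starts and Nlrp3 has 2, and for both a window with a match is printed. The first window of Il1rn and the second of Nlrp3, not printed, held no match.
Il1b, minus strand, chr2:129371090-129371389: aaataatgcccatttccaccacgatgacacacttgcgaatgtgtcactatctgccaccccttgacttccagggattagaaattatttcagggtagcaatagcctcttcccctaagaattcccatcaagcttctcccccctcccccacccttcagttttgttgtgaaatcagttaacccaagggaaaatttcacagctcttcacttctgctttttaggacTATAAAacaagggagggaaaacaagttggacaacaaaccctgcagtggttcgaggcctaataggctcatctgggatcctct
Nlrp3, plus strand, the first start, chr11:59541319-59541618: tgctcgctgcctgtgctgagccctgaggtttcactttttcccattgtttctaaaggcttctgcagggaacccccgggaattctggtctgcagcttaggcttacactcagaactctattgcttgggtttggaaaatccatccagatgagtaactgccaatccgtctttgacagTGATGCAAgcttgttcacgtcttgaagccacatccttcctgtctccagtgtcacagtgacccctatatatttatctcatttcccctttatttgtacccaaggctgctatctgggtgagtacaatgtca
Il1rn, plus strand, the third start, chr2:24345121-24345420: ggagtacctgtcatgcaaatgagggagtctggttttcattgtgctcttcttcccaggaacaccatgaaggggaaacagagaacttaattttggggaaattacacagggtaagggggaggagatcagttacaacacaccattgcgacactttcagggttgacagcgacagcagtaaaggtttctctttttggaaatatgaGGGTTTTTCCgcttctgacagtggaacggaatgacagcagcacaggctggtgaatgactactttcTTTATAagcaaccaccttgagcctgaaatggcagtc
Il36g, plus strand, chr2:24186226-24186525: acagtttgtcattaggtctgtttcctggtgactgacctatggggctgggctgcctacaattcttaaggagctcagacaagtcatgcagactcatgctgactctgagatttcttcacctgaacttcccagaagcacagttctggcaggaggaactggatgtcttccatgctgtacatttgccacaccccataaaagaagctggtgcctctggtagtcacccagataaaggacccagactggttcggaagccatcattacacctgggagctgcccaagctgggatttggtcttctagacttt
In Il1b the TATA box began 31 bases before the start, and Il1a had one 32 bases before its own. In the third window of Il1rn the TATA letters lay on the opposite strand and began 14 bases after the start. The ATF4 composite element occurred in 1 of the 15 windows of the 10 members, 78 bases before the first start of Nlrp3, and in 3.97% of 32851 mouse promoter windows. The NF-κB letters occurred in 2 overlapping windows of Il1rn, as 1 shared match, and in 1.63% of all windows. The TATA letters occurred in 6 of the 15 windows and in 13.6% of all, and the cyclic AMP response element in 0 of the 15 and in 1.79% of all. These letters were not found in the window of Il36g. A match describes the sequence only, and binding was not measured.

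Il1b encodes interleukin-1β, the secreted pyrogenic cytokine of the family. Its signal was 7.89, 8.29, 8.36 and 9.37 in the wild type (replicates 1 to 4) and 12.38, 13.58, 10.02 and 11.64 in the knockout. The groups did not overlap, with a gap of 0.65 between the highest wild-type and the lowest knockout array, and the knockout arrays themselves spanned 11.8-fold. Wild-type lungs averaged 8.48 ± 0.63 and knockout lungs 11.91 ± 1.49 (SD, n = 4 each). The difference of 3.43 (SE 0.66, 10.8-fold) had a 95% confidence interval of 1.93 to 4.92 and an adjusted p of 0.0876 by limma, so that it was not called. Without the array labelled wild-type replicate 1 it was 3.23 (adjusted p = 0.0886, limma).

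Il36g encodes interleukin-36γ, which acts through its own receptor chain with the shared Il1rap. It read 6.37, 6.59, 6.04 and 6.53 in the wild type and 8.97, 10.41, 6.95 and 8.84 in the knockout, in replicate order. Knockout replicate 3 lay only 0.37 above the highest wild-type array, whereas the other 3 knockout arrays lay well apart. The difference was 2.41 (SE 0.59, 95% confidence interval 1.08 to 3.75, 5.33-fold, adjusted p = 0.166, limma).

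The other 3 ligands did not show this pattern. Il1a, which encodes interleukin-1α, read 6.34, 6.52, 6.99 and 7.14 in wild-type and 6.80, 6.82, 7.17 and 6.71 in knockout lungs. Its groups overlapped (difference 0.13, SE 0.18, interval -0.28 to 0.54, adjusted p = 0.834, limma), and leaving out its lowest array, the one labelled wild-type replicate 1, gave a difference of -0.01. Il18, a precursor that is present in resting epithelium and macrophages, read 6.71 to 6.92 in wild-type and 6.42 to 6.93 in knockout lungs (difference -0.07, SE 0.11, interval -0.32 to 0.18, adjusted p = 0.846, limma). Il33 read 10.97, 11.51, 11.08 and 10.58 in wild-type and 11.05, 10.66, 10.37 and 11.14 in knockout lungs, with overlapping ranges (difference -0.23, SE 0.22, interval -0.73 to 0.27, adjusted p = 0.742, limma), and its difference moved from -0.07 without wild-type replicate 2 to -0.38 without wild-type replicate 4. The intervals of Il1a and Il18 exclude a difference as large as 1.5-fold in either direction, whereas that of Il33 reaches past it on the lower side.

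Il1rn, the receptor antagonist, had the smallest adjusted p of the 10 members. It read 6.41, 6.51, 6.33 and 6.44 in wild-type and 6.995, 7.44, 7.07 and 6.86 in knockout lungs. All 4 knockout arrays lay at least 0.35 above the wild type, and the wild-type arrays spanned only 0.17. The difference was 0.67 (SE 0.12, interval 0.40 to 0.93, 1.59-fold, adjusted p = 0.0624, limma), close to the threshold for a call. It was called when array medians were centred (0.69, adjusted p = 0.0437, 0.232% of clusters called higher) and when 1 cluster per gene was tested (adjusted p = 0.0444, 0.517% called higher). A single transcript cluster stands for the gene, so the secreted and intracellular forms that start at different promoters were not told apart.

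Both receptor chains differed by 0.26 or less. Il1r1, the signalling receptor, read 10.996, 11.36, 10.98 and 11.05 in wild-type and 10.78, 10.69, 10.997 and 10.90 in knockout lungs (difference -0.26, SE 0.10, interval -0.49 to -0.02, adjusted p = 0.369, limma). It was the only member that was lower at an unadjusted p under 0.05, and its groups overlapped in knockout replicate 3. Il1rap, the shared co-receptor, read 6.55 to 6.64 in wild-type and 6.79, 7.15, 6.58 and 6.57 in knockout lungs. Knockout replicates 1 and 2 lay above the wild type and replicates 3 and 4 within it (difference 0.18, SE 0.12, interval -0.09 to 0.46, adjusted p = 0.607, limma), and without knockout replicate 2 the difference was 0.06.

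The inflammasome genes read moderately higher. Nlrp3, the sensor, read 5.86, 5.95, 5.99 and 5.99 in wild-type and 6.72, 6.92, 6.01 and 6.64 in knockout lungs. Knockout replicate 3 exceeded the highest wild-type array by only 0.0167, so the separation of the groups rests on the other 3 arrays (difference 0.62, SE 0.17, interval 0.24 to 1.01, 1.54-fold, adjusted p = 0.200, limma). Casp1, the protease that cleaves the precursors of Il1b and Il18, read 8.36, 7.95, 8.57 and 8.17 in wild-type and 8.80, 8.65, 8.86 and 8.35 in knockout lungs. Its groups overlapped in knockout replicate 4, and the difference was 0.40 (SE 0.15, interval 0.06 to 0.74, 1.32-fold, adjusted p = 0.336, limma).

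**Figure D2:**
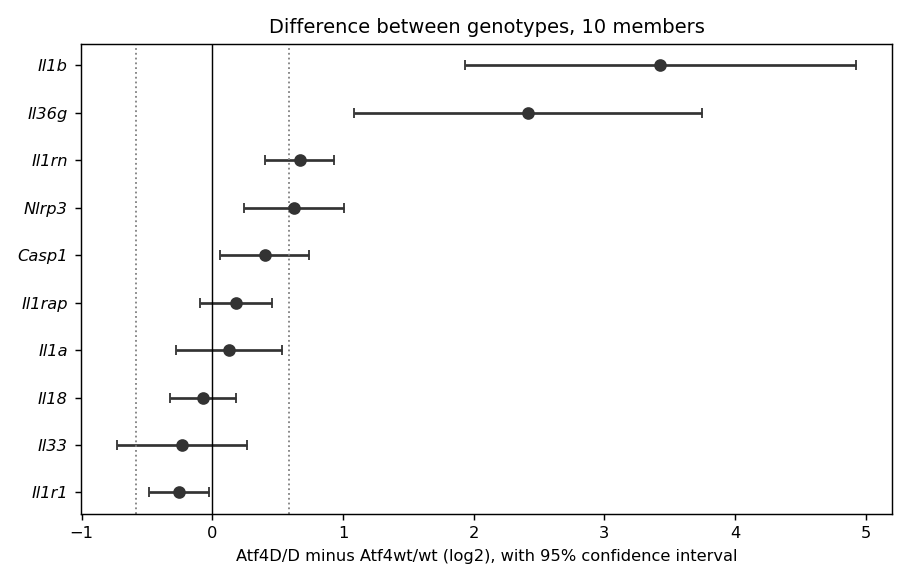
Difference between genotypes for the 10 members on the log2 scale, with limma's 95% confidence interval; the solid line marks no difference and the dotted lines a 1.5-fold change in either direction. Il1b (3.43) and Il36g (2.41) lie beyond the dotted line with their whole interval. Il1a, Il18, Il1r1 and Il1rap lie between the dotted lines with theirs.

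Knockout replicate 3 decided whether several members were called. Without it, Il1b differed by 4.05 (adjusted p = 0.0348), Il36g by 3.03 (adjusted p = 0.0348) and Nlrp3 by 0.81 (adjusted p = 0.0243), and all 3 were called by limma, in a fit where 0.118% of clusters were called higher. Il1rn differed by 0.68 in that fit with an adjusted p of 0.126. Leaving out any other single array called 0 of the 10 members, although the differences of Il1b, Il36g, Nlrp3 and Il1rn kept their sign in all 8 such fits. The difference of Il1b ranged from 2.87, without knockout replicate 2, to 4.05. Knockout replicate 2, in which Il1b, Il36g, Nlrp3 and Il1rn were highest, was the only female knockout. With the 3 males of each genotype alone, Il1b differed by 2.83 (adjusted p = 0.326, limma) and Il36g by 1.76 (adjusted p = 0.419, limma).

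**Figure D3:**
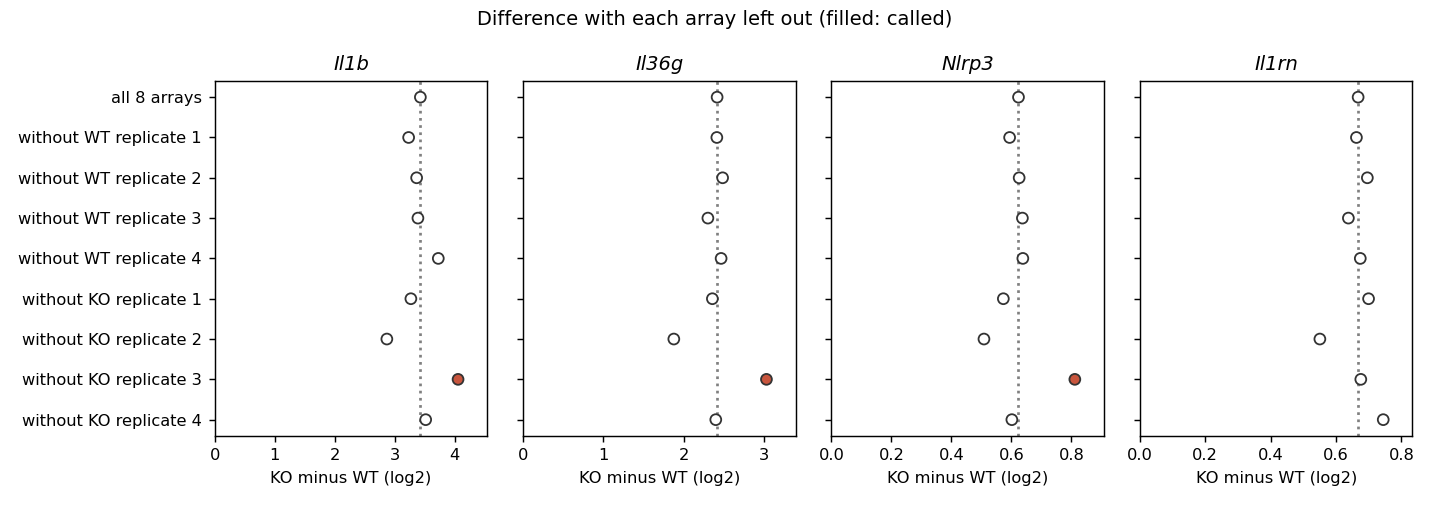
Knockout minus wild-type difference (log2, x axis from 0) of Il1b, Il36g, Nlrp3 and Il1rn with all 8 arrays and with each array left out in turn (rows); filled points were called, and the dotted line marks the value with all arrays. The filled points are those without knockout replicate 3, in Il1b (4.05), Il36g (3.03) and Nlrp3 (0.81).

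Most neutrophil transcripts were also highest in knockout replicate 2 (13 of 15 markers) and lowest in knockout replicate 3 (12 of 15). Ltf and Lcn2 went the other way and were highest of the knockout arrays in replicate 3 (10.16 and 11.27). The mean of the 15 neutrophil markers was 7.30 to 7.88 in wild-type lungs and 9.32, 10.32, 8.06 and 9.19 in knockout replicates 1 to 4. Its lowest knockout value was thus in replicate 3, the array in which Il1b, Il36g and Nlrp3 were lowest as well. All 15 markers had higher means, 10 at an unadjusted p under 0.05 (4.40% of all clusters) and 0 called higher by limma (0.229%), with a median difference of 1.504. The defining genes S100a8 and S100a9, the calprotectin subunits, differed by 2.99 and 2.96, whereas Mpo and Elane, granule genes of immature neutrophils chosen after their values were seen, read under the array medians on all 8 arrays. The part of neutrophil transcripts in the differences of the members was not tested.

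Measured over all 8 arrays, the 3 genes most like Il1b, the member with the widest range, were neutrophil markers. Likeness was the root mean square distance between log2 profiles centred on their means, and so includes the difference between genotypes. The nearest 3 of all other genes were S100a9 (distance 0.39), Csf3r, the receptor for G-CSF (0.39), and Mmp8, the neutrophil collagenase (0.48). S100a9 read 14.51, 16.15, 12.42 and 14.24 in knockout replicates 1 to 4, in the array order of Il1b. Il36g came sixth of all genes, at a distance of 0.65. The wild-type arrays did not share an order: replicate 3 was highest for 10 of the 15 neutrophil markers, whereas Il1b was highest in replicate 4 (9.37). Il36g was lowest in wild-type replicate 3 (6.04). From high to low, the knockout arrays ran in the order of replicates 2, 1, 4 and 3 for Il1b, whose order this is, for Il36g and Nlrp3 (2 of the other 9 members), and for 9 of the 15 neutrophil markers and 6.48% of all clusters. The order also held for 2 of 8 alveolar macrophage markers and 2 of 8 innate lymphoid, basophil and mast cell markers, and for 0 genes of the other 6 marker lists.

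**Figure D4:**
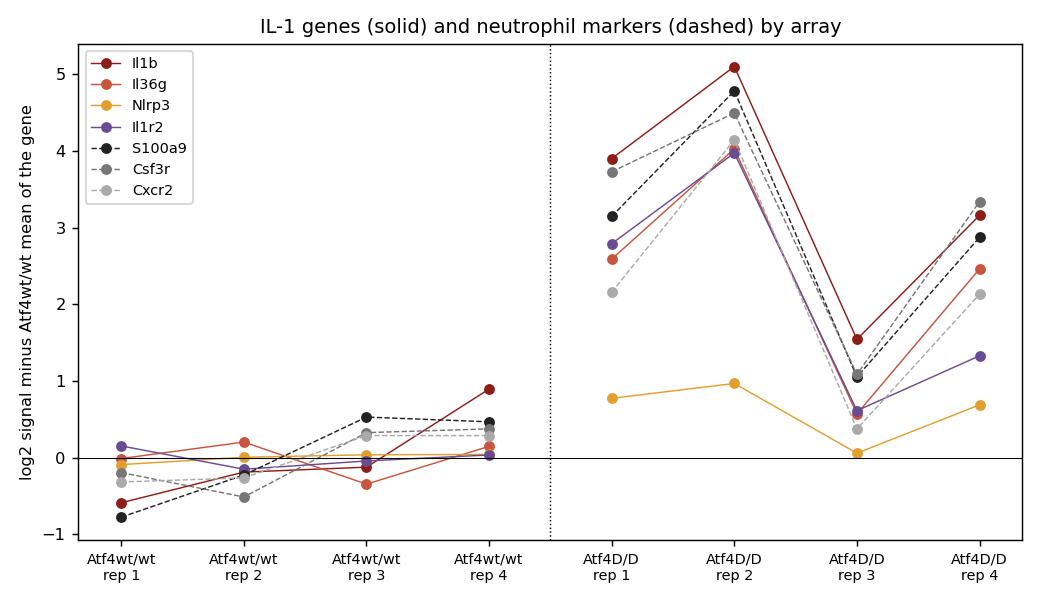
Log2 signal minus the Atf4wt/wt mean of the same gene (y axis) on each of the 8 arrays (x axis) for Il1b, Il36g, Nlrp3 and Il1r2 (solid) and the neutrophil markers S100a9, Csf3r and Cxcr2 (dashed), 7 genes chosen after their values were seen; thin lines join the arrays of a group only to guide the eye. Knockout replicate 2 is highest and replicate 3 lowest among the knockout arrays for these 7 genes, whereas Il1rn (not plotted) was lowest in replicate 4 (6.86).

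Markers of the other cell types differed between the genotypes in direction and degree from list to list. Over all clusters, 4.40% were higher and 7.63% lower at an unadjusted p under 0.05, and 0.276% were called by limma. Monocyte markers had a mean of 8.30 to 8.88 in wild-type and 8.74 to 9.11 in knockout lungs, with 3 of 10 higher and 1 lower at an unadjusted p under 0.05 and 1 called, F13a1 at 1.86 (adjusted p = 0.00348), and with the defining genes Ly6c2 at 0.44 (adjusted p = 0.373) and Ccr2 at -0.35 (adjusted p = 0.422). Alveolar macrophage markers lay at 9.04 to 9.29 and 8.77 to 9.37, with 0 of 8 called and with the defining genes Marco at -0.08 (adjusted p = 0.930) and Car4 at -0.39 (adjusted p = 0.330), the latter the only one at an unadjusted p under 0.05. Markers of alveolar type 2 cells, which hold Il33 in mouse lung, lay at 15.52 to 15.74 in wild-type and 15.13 to 15.51 in knockout lungs, with 0 of 10 called and 6 lower at an unadjusted p under 0.05. Their defining genes Sftpa1 and Sftpb differed by only 0.02 (adjusted p = 0.956) and 0.05 (adjusted p = 0.831, limma). Dendritic cell markers lay at 7.11 to 7.63 and 6.45 to 7.07, with 0 of 9 called and 6 lower at an unadjusted p under 0.05, and with Flt3 at -0.60 (adjusted p = 0.142) and Xcr1 at -0.61 (adjusted p = 0.334). Platelet markers lay at 8.29 to 10.55 in wild-type and 10.89 to 12.10 in knockout lungs, with 8 of 8 higher at an unadjusted p under 0.05 (median difference 2.59) and 3 called, Itga2b at 2.06 (adjusted p = 0.0476), Itgb3 at 3.30 (adjusted p = 0.0329) and Tubb1. Erythroid markers lay at 6.44 to 6.54 and 7.44 to 8.26, with 4 of 6 higher at an unadjusted p under 0.05 and 1 called, Alas2 at 2.93 (adjusted p = 0.041), and with Slc4a1 at 3.70 (adjusted p = 0.0501). Markers of group 2 innate lymphoid cells, basophils and mast cells, which respond to Il33, lay at 4.69 to 4.86 and 4.61 to 4.89, with 0 of 8 called and 0 at an unadjusted p under 0.05, and with Il5 at -0.07 (adjusted p = 0.746) and Il13 at 0.02 (adjusted p = 0.96). T and B lymphocyte markers lay at 7.09 to 7.78 and 7.27 to 7.83, with 0 of 6 called and 1 lower at an unadjusted p under 0.05, Cd3d at -0.25 (adjusted p = 0.346), and with Cd3e at 0.19 (adjusted p = 0.894). The ranges of the genotypes did not overlap for neutrophil, platelet, erythroid, dendritic cell and alveolar type 2 markers, and overlapped for the other 4 lists. How far any of these cell types accounts for the differences of the members was not tested.

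Of the other genes of the pathway, 73 of 80 listed were measured in 5 lists, and Il1rl1, Naip1, P2rx7, Irak1, Irak4, Chuk and Nfkb1 were not analysed here. Of the 73, 2 were called, both higher (0.229% of all clusters were called higher). At an unadjusted p under 0.05, 18 were higher (4.40% of all clusters) and 3 lower (7.63%). The same shares stand beside the counts of each list below. The 5 other ligands and antagonists included 0 at an unadjusted p under 0.05 and 0 called (median -0.04). The 3 with the smallest p were Il1f10 at -0.12, Il18bp, the soluble trap for interleukin-18, at 0.27, and Il36rn, the antagonist of the interleukin-36 receptor, at -0.05 (adjusted p 0.539 to 0.852, limma). Il1f10, Il36b and Il36rn read under the array medians on all 8 arrays.

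Among the 7 other receptors, a decoy read higher with the neutrophil genes. Il1r2, which binds interleukin-1 without signalling and is carried by neutrophils, read 5.40, 5.09, 5.20 and 5.28 in wild-type and 8.03, 9.22, 5.86 and 6.57 in knockout lungs. The groups did not overlap, and the knockout arrays again ran from replicate 2 down to replicate 3 (difference 2.18, SE 0.62, 4.52-fold, adjusted p = 0.217, limma). Il18rap, the accessory chain of the interleukin-18 receptor, read 0.86 higher (adjusted p = 0.250), and Sigirr, an inhibitory receptor of the family, read 0.20 lower, with every knockout array below every wild-type array (adjusted p = 0.264). Over the list, 0 were called, 2 were higher and 1 lower at an unadjusted p under 0.05, and the median was -0.05. Every knockout array lay above the wild type in 1 of the 7 genes (2.83% of all clusters) and below it in 1 (4.41%).

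The 20 other inflammasome sensors, adaptors and effectors included 0 called, 6 higher and 0 lower at an unadjusted p under 0.05 (median 0.11). Casp8, an initiator caspase that can also process interleukin-1β, differed by 0.49 (adjusted p = 0.168). Nlrp12, a sensor of myeloid cells, read 5.22 to 5.44 in wild-type and 6.69, 7.19, 5.48 and 6.27 in knockout lungs (difference 1.06, adjusted p = 0.218). Mefv, the gene of pyrin, differed by 0.47 (adjusted p = 0.243). In all 3, which were named for the smallest p of the list, every knockout array lay above the wild type. Over the whole list this held for 4 of 20 genes (2.83% of all clusters). In 0 of the 20 every knockout array lay below (4.41%). Pycard, the adaptor ASC, and Gsdmd, the pore-forming gasdermin D, were singled out after their values were seen, at -0.04 and 0.0043 (adjusted p 0.898 and 0.991).

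The MyD88 and NF-κB list held 1 of the 2 called genes. Irak3, a kinase-like protein of myeloid cells that restrains signalling by interleukin-1 and Toll-like receptors, read 8.90, 8.64, 8.88 and 8.62 in wild-type and 9.47, 9.43, 9.20 and 9.37 in knockout lungs. It rose by 0.61 (SE 0.09, interval 0.40 to 0.82, 1.52-fold, adjusted p = 0.0424, limma), just past the fold minimum. Its call held without the array labelled wild-type replicate 1 (adjusted p = 0.0386) and ended without any one of the other 7 arrays (0.0543 to 0.148). It also ended with array weights, where the difference of 0.58 was under 1.5-fold, with sex as a covariate (0.0557), in males alone (0.249), with the replicate block (0.173) and by the methods' t-test (0.207). Traf6, the ubiquitin ligase downstream of MyD88, differed by 0.24 and Tnfaip3, the feedback inhibitor A20, by 0.27 (adjusted p = 0.196 and 0.245). Of the 21 genes, 7 were higher and 0 lower at an unadjusted p under 0.05 (median 0.14).

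Genes that interleukin-1 induces in other settings gave a mixed picture. Selp, the adhesion receptor P-selectin of endothelium and platelets, read 6.08, 6.15, 6.24 and 6.21 in wild-type and 8.44, 8.14, 7.94 and 7.22 in knockout lungs. It rose by 1.76 (SE 0.22, interval 1.27 to 2.26, 3.40-fold, adjusted p = 0.0229, limma) and was lowest in knockout replicate 4, the array in which all 8 platelet markers were lowest among the knockout. In the wild type Selp did not follow them: replicate 4 was highest there for all 8 platelet markers, but Selp read 6.21 in it and 6.24 in replicate 3. The call of Selp held without the array labelled wild-type replicate 1 (adjusted p = 0.0375) or knockout replicate 4 (0.00138) and ended without any one of the other 6 arrays (0.0505 to 0.0844), in males alone (0.211), with the replicate block (0.140) and by the methods' t-test (0.194). The endothelial adhesion genes Vcam1 and Icam1 differed by -0.63 and 0.26 (adjusted p = 0.253 and 0.256). Of the 20 genes, 3 were higher and 2 lower at an unadjusted p under 0.05 (median 0.04). The higher genes included Lcn2 (0.81), which is also counted among the neutrophil markers. Il6, Csf3, Cxcl1, Cxcl2 and Ccl7, chosen after their values were seen, read under the array medians on all 8 arrays and differed by -0.01 to 0.09, so a change in these dim clusters may not have been detectable.

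**Figure D5:**
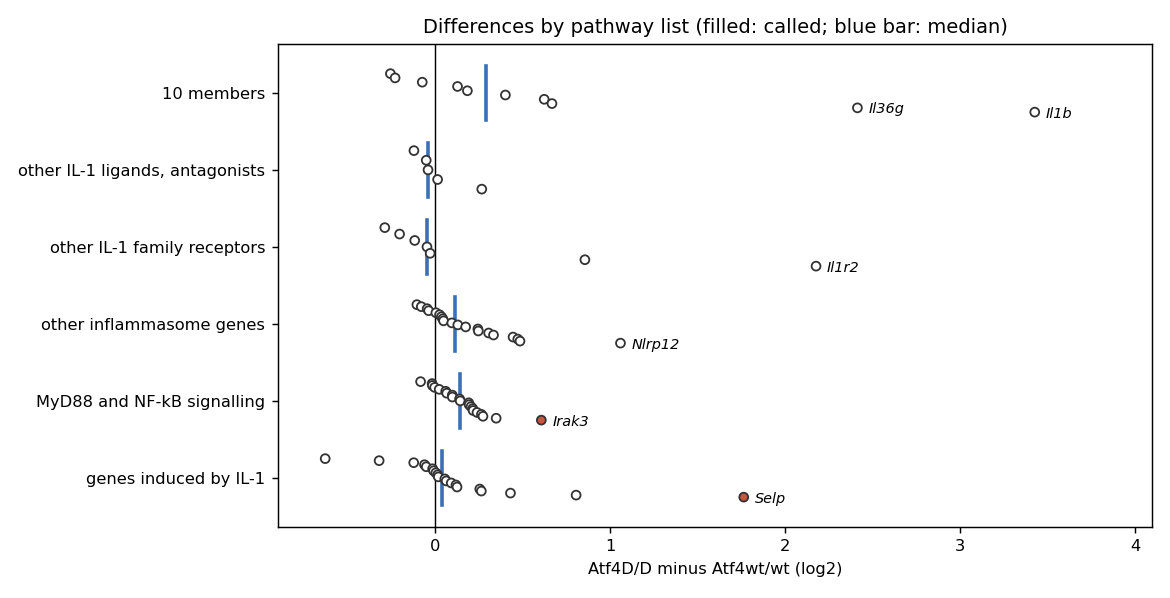
Knockout minus wild-type difference (log2, x axis) of each measured gene in the 10 members and 5 pathway lists (rows); filled points were called and the blue bar is the median of the list. Irak3 (0.61) and Selp (1.76) are the 2 called genes, and Il1b (3.43), Il36g (2.41) and Il1r2 (2.18) have the largest differences without a call.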

How the data were processed

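Lung RNA of 8 mice was run on 1 Clariom D array each. The log2 signals deposited by the authors were made with RMA at default settings in Transcriptome Analysis Console 4. RMA usually comprises background correction, quantile normalisation and a summary per transcript cluster, but the paper does not list its steps or any further transformation. The deposited values ran from 2.09 to 19.68. Quantile normalisation, where used, hides a shift common to most transcripts. Genome build: not given in the sources used here. No scan dates were used.

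Genotype and replicate number are those of the labels, and each array is 1 animal, so p-values rest on the spread between these animals. Of 65956 clusters, 30638 had 1 symbol in the platform annotation, 2176 several and 33142 none. The brightest cluster stood for a gene, with 4 listed genes matched to older symbols through RefSeq synonyms.

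The knockout was set against the wild type in limma 3.58.1 (R 4.3.3, lmFit, eBayes, two-sided, no covariate, no filter) over all clusters, with the study's thresholds, after tests on simulated data. Named were the members, the 3 genes with the smallest p of each pathway list, called genes, the first 2 measured markers of lists and the 3 genes most like Il1b. Members and lists were chosen with earlier results of these data known. Alternatives were centring, cyclic loess, array weights, eBayes with trend and robust settings, sex in the model, the male mice alone, a block on replicate number, leaving out dim clusters, testing 1 cluster per gene, Student's t-test, any fold, and each array left out. The paper names Student's t-test in its general statistics, whereas its array methods name contrasts in Transcriptome Analysis Console. Figures were drawn with matplotlib 3.10.9.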

Additional observations from a re-analysis of the deposited data

Results flagged for a closer look

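In 3 of 68 groups of 4 arrays, 1 array stood apart by Dixon's test at its 95% critical value, and chance flags about 1 in 20 groups. Casp8 read 11.80 in knockout replicate 1, against 12.13 to 12.19 in the other knockout arrays. The mean of the erythroid markers was 6.54 in wild-type replicate 4, while the remaining wild-type arrays lay at 6.44 to 6.46. The mean of the markers of group 2 innate lymphoid cells, basophils and mast cells was 4.86 in wild-type replicate 2, against 4.69 to 4.70 in the others. None of the 10 members was among them, knockout replicate 3 included.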

How the results depend on the processing

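The number of the 10 members called was 0 with all arrays, 1 (Il1rn) with centred array medians or with 1 cluster per gene, and 0 to 3 with single arrays left out. It was 0 under the other 9 alternatives, among them Student's t-test. The median difference of the members was 0.23 to 0.37 under 10 alternatives and 0.24 to 0.38 with single arrays left out. Of the 73 pathway genes, 2 were called with all arrays, 1 with array weights, 1 with sex as a covariate, 0 with males only, 0 with the replicate block, 0 by Student's t-test, and 0 to 2 with single arrays left out. With arrays left out, Il1a ranged from -0.0071 to 0.26, Il18 from -0.14 to 0.0307 and Il36rn from -0.11 to 0.0022, each changing sign once, Il1a without wild-type replicate 1 and Il18 and Il36rn without knockout replicate 3; the other 8 members kept their sign in all 18 fits. The fits without 1 array have fewer animals; the cause of the other changes was not tested. Same-numbered arrays shared only a number: their deviations correlated at -0.19 to 0.06, 0 of 8 arrays correlated best with its own number, and the fit with that block called 0 clusters in all (182 without it). Over all clusters, 4 were called with males only, 0 by Student's t-test and 8 to 266 with single arrays left out, the fewest without wild-type replicate 3 or knockout replicate 1. No member had another cluster with a single symbol, so that alternative gave no value. Precision is limited by the 4 animals per genotype.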
